A study of Danio rerio with 18 samples.

Results

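The data described here are the transcriptomes of zebrafish embryos that carried the StCsm(EGFP) complex, compared between the 128-cell stage and 5 hours postfertilization (5 hpf). The members were chosen by their labels as the Csm samples of these 2 stages, which gave 6 of the 18 samples of the series, 3 at each stage. Tg(ddx4:ddx4-EGFP) females of the ABTL background were crossed with casper males, and embryos of 3 mating pairs were pooled. Every sample of both stages therefore came from a cross that carries the transgene, in which the regulatory sequence of ddx4, a germ cell gene, drives a Ddx4-EGFP fusion. The yolk of 1-cell embryos received 0.7 ng of the DNase-deficient variant D16A-StCsm(EGFP) in 1 nl, in 3 independent injections. StCsm is a type III-A CRISPR ribonucleoprotein of Streptococcus thermophilus that cleaves RNA complementary to its guide, the crRNA. Whole embryos were harvested in pools of 25 at each stage, and poly(A) RNA was sequenced. The samples labelled Mock received diluted storage buffer alone and serve below for comparison, mainly to ask whether a stage difference depended on the complex. The transgenic fish included homozygotes and heterozygotes, which limits how far EGFP levels can be compared between replicates. The study added a batch term for this reason, and its pooled embryos were divided at random into the injected and mock groups.

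The guide of the injected complex is shown because EGFP is the only transcript that it was designed to bind. Its 32-base spacer, within a mature crRNA of 40 bases, reads 5′ to 3′ as follows.
EGFP crRNA spacer: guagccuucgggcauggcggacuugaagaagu

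A zebrafish egg is loaded with mRNA during oogenesis, and the embryo divides on this maternal stock while its own genome is almost silent. At the maternal-to-zygotic transition, maternal mRNAs are deadenylated and degraded by factors supplied by the mother and by factors that the embryo makes, among them the microRNA miR-430, while Pou5f3, Nanog and SoxB1 proteins open the zygotic genome. The 128-cell stage precedes the main wave of activation and 5 hpf lies in the late blastula to early gastrula period, so the comparison spans both processes.

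The 6 samples held 13198105 to 21092691 counts assigned to genes and 20963 to 24077 genes with at least 1 count. Levels are given as CPM, counts per 1000000 of the effective library size, with composition factors (TMM) of 1.21 to 1.31 at the 128-cell stage and 0.765 to 0.819 at 5 hpf. At 5 hpf fewer genes filled the libraries: 451, 452 and 601 genes held 50% of the counts in replicates 1, 2 and 3, against 1252, 1386 and 1378 at the 128-cell stage. Samples of the 128-cell stage correlated across genes at 0.98 to 0.99 (Pearson's r, log2 CPM) and those of 5 hpf at 0.96 to 0.98, lowest with replicate 3. In that sample the mitochondrial genome supplied 6.34% of counts, against 14.8% and 13.1% in replicates 1 and 2, and with the mitochondrial transcripts left out, 6604 genes rose and 6653 fell in the test below, in place of 6418 and 6853. Because poly(A) RNA was selected, less RNA and a shorter poly(A) tail cannot be told apart, and neither can fewer cells of a type and less RNA per cell. A CPM is also relative to the other transcripts of its library and says nothing of the size of the polyadenylated pool. With TMM it is not a share of counts: all tested genes summed to 76.4 to 82.3% of 1000000 CPM at the 128-cell stage and to 122 to 131% at 5 hpf.

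Most of the transcriptome differed between the stages, in both directions. Of 16626 genes tested, 6418 rose (38.6%) and 6853 fell (41.2%) at an adjusted p under 0.1 in edgeR's quasi-likelihood test with the replicate number as a block. A stricter test against a 2-fold change called 4134 genes higher at 5 hpf (24.9%) and 3934 lower (23.7%). Of these, 4128 and 3928, respectively, moved in the same direction in all 3 replicate pairs, which a test on the same pairs largely fixed. Among the genes that it did not call, 6086 also had all 3 pairs in 1 direction. In this text a gene is said to have risen or fallen when it passed the plain test. The counts of the 2-fold test are given for lists and stand beside the 24.9% higher and 23.7% lower of all genes. The genes that rose by more than 2-fold took 18.8 to 20.9% of the counts of tested genes at the 128-cell stage and 52.95 to 56.1% at 5 hpf. The genes that fell by more than 2-fold went from 23.5 to 24.6% down to 3.495 to 4.06%, a separation that the choice of the genes fixed.

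The 2 directions differed in their range. Among genes past the 2-fold test, the ratio of pooled counts at 5 hpf over the 128-cell stage was above 10 for 2034 genes, above 100 for 744 and above 1000 for 160, with genes at 0 counts set to their bound. The inverse ratio was above 4 for 1992 genes, above 10 for 322 and above 20 for 53. Of the genes that rose by more than 2-fold, 182 had no count in any 128-cell sample and a further 389 had 1 to 3 counts over all 3 samples, whereas only 2 of those that fell had no count at 5 hpf. Without replicate 3 the 2-fold test called 4259 genes higher and 3518 lower.

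The balance of the 2 directions rested on the scaling. The median log2 fold change of all genes was -0.10 with TMM. It moved by -0.68 with library totals alone, where 4460 genes rose and 9535 fell, and by 0.17 with DESeq2 size factors, where 6958 rose and 6172 fell. Changes are therefore relative to a typical gene, and a list whose median changes sign with library totals is named as such below.

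**Figure D1:**
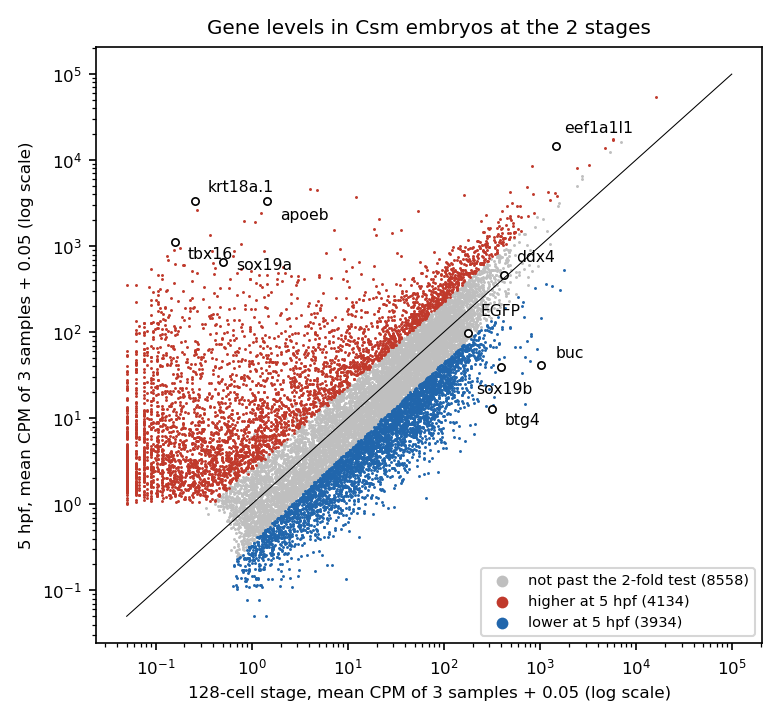
Mean CPM of the 3 Csm samples at the 128-cell stage (horizontal, log scale) against the mean at 5 hpf (vertical, log scale) for the 16626 genes tested, each point a gene and 0.05 added to both means. The 4134 genes higher by more than 2-fold (red) reach from the left edge, where 128-cell levels are at or near 0, and the 3934 lower genes (blue) form a band below the diagonal that marks equal levels.

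EGFP, the target of the complex, was present at both stages. Its CPM in replicates 1, 2 and 3 was 155, 276 and 112 at the 128-cell stage and 71.2, 129 and 93.8 at 5 hpf. It was lower at 5 hpf in each replicate pair, although the 2 ranges overlapped, and replicate 2 was the highest at both stages. The change was -0.83 ± 0.18 on the log2 scale (SE, adjusted p = 6.47e-04) and did not pass the 2-fold test (adjusted p = 0.855). Its size rested on the scaling: it was -1.51 with library totals (adjusted p = 1.43e-07) and -0.66 with DESeq2 size factors (adjusted p = 0.00265). Counts of EGFP were assigned to a 749-base, single-exon gene at positions 501 to 1249 of a contig that the authors added to the genome.

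The gene ddx4, which encodes the Vasa helicase of germ plasm and whose regulatory sequence drives the transgene, had 454, 459 and 363 CPM at the 128-cell stage and 521, 473 and 400.1 CPM at 5 hpf. Its counts may include reads from the ddx4 part of the fusion transcript, and their share was not tested. The stages overlapped, and the difference was 0.13 ± 0.16 on the log2 scale (adjusted p = 0.474), which became -0.56 with library totals (adjusted p = 0.00268). The Nodal co-receptor gene tdgf1, which is both maternal and zygotic, had 96.9, 89.9 and 93.0 CPM at the 128-cell stage and 402, 448 and 399.6 CPM at 5 hpf, and it rose by 2.158 ± 0.16 (2-fold test, adjusted p = 6.53e-07).

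Among transcripts with a mean of at least 50 CPM at the 128-cell stage, the 10 that fell furthest kept between 1.72 and 3.85% of their level. In descending order of the size of the fall they were ENSDARG00000114883, which has no symbol here, rasef2, HSD3B7, tdrd6b, slbp2, mtus1a, zgc:113425, PGP, f3b and si:dkey-163f14.5. The unnamed gene had 56.6, 62.2 and 75.4 CPM at the 128-cell stage and 1.84, 0.67 and 0.871 CPM at 5 hpf, a change of -5.86 ± 0.30. The small GTPase gene rasef2 had the highest CPM of the 10, a measure that is not scaled by length, with 754, 672 and 685 CPM at the 128-cell stage and 21.9, 13.1 and 9.11 CPM at 5 hpf (-5.66 ± 0.24, 2-fold test adjusted p = 2.51e-11). The Tudor domain gene tdrd6b went from 149 ± 25.5 to 4.15 ± 0.246 CPM (mean ± SD, n = 3). HSD3B7, which in mammals acts in bile acid synthesis, went from 87.6 ± 4.55 to 2.34 ± 0.79 CPM. The remaining members were of diverse kinds, among them mtus1a, which encodes a microtubule-associated protein, PGP, a phosphoglycolate phosphatase, and f3b, a tissue factor of coagulation, and all of the 10 were lower at 5 hpf in every sample than in any sample of the 128-cell stage.

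Of 23 tested genes of oocyte and egg factors, 14 fell (60.9%, against 41.2% of all genes) and 6 rose (26.1%, against 38.6%). Of these, 11 and 2 passed the 2-fold test, respectively. The median log2 fold change of the 23 genes was -1.12, beside -0.10 for all genes. The falls were led by slbp2, which encodes the oocyte form of the histone mRNA stem-loop binding protein and had 211, 205 and 206 CPM at the 128-cell stage and 8.14, 6.89 and 4.44 CPM at 5 hpf. It changed by -5.03 ± 0.20 (2-fold test adjusted p = 7.49e-12). Next was btg4, whose product recruits the CCR4-NOT deadenylase to maternal mRNA, with 397, 274 and 295 CPM at the 128-cell stage and 13.3, 17.0 and 8.40 CPM at 5 hpf and a change of -4.67 ± 0.22. Both genes kept under 5% of their level (3.07 and 3.93%), and no sample of one stage overlapped the other.

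Other egg transcripts kept a larger share of their level. The claudin gene cldnd, an abundant maternal tight junction transcript, went from 708 ± 171 to 51.5 ± 18.3 CPM, and the linker histone gene h1m, which packages chromatin before activation, went from 1797 ± 478 to 532 ± 267 CPM. For h1m the change was -1.85 ± 0.24 and its 3 samples at 5 hpf were spread from 281 in replicate 3 to 813 CPM in replicate 1. The meiotic kinase gene mos went from 39.3 ± 6.20 to 4.77 ± 1.66 CPM. The oocyte growth factors bmp15 and gdf9 fell by 3.56 and 1.94 on the log2 scale, and pabpn1l, which encodes a poly(A)-binding protein of the egg, fell by 2.12.

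Part of the maternal stock had a like level at both stages. The translational regulator zar1, essential in zebrafish oocytes, had 43.5, 30.9 and 28.5 CPM at the 128-cell stage and 48.2, 33.2 and 26.9 CPM at 5 hpf, and its relative zar1l fell by 1.91. The oocyte cap-binding protein gene eif4e1b had 63.0, 62.7 and 51.8 CPM at the 128-cell stage and 59.9, 65.4 and 53.5 CPM at 5 hpf. For these transcripts the stages overlapped, and the differences were 0.059 ± 0.17 and 0.011 ± 0.15 on the log2 scale (adjusted p = 0.766 and 0.95). With library totals both were lower at 5 hpf, by -0.63 and -0.67 (adjusted p = 0.00328 and 5.73e-04), so that their place depends on the scaling. The egg envelope genes zp2.2 and zp3a.2 rose by 0.78 and 0.83, neither past the 2-fold test, and with library totals in place of TMM they changed by 0.099 and 0.14. The list also held stm, which encodes Starmaker, a protein of the otolith matrix. It rose from 0.219 ± 0.0547 to 2609 ± 465 CPM, and ube2c, a ubiquitin-conjugating enzyme of mitotic exit, rose from 42.4 ± 5.21 to 120.0 ± 15.8 CPM.

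**Figure D2:**
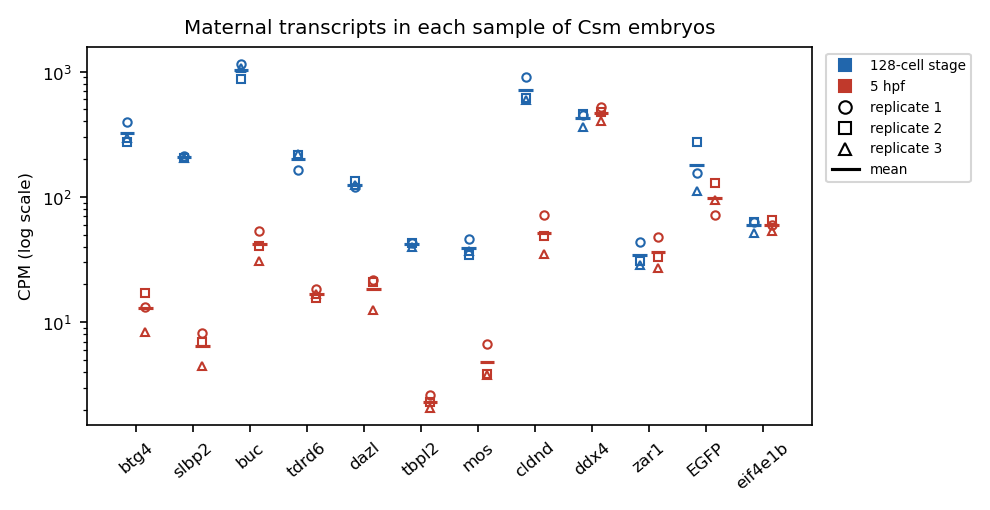
CPM (log scale) of 12 maternal transcripts in each of the 3 Csm samples at the 128-cell stage (blue) and at 5 hpf (red), with a symbol for each replicate and a bar at the mean. From btg4 to cldnd every sample of 5 hpf lies far below every sample of the 128-cell stage, whereas for ddx4, zar1, EGFP and eif4e1b the stages overlap. On library totals ddx4, zar1 and eif4e1b would be lower at 5 hpf.

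None of 15 tested germ plasm genes rose (38.6% of all genes did), and 12 fell (80%, against 41.2%). Of the 12, 10 passed the 2-fold test, and the median of the list was -1.67. With DESeq2 size factors 2 of the 15 rose and 11 fell. The organizer of germ plasm in the oocyte, buc, fell furthest, with 1145, 865 and 1069 CPM at the 128-cell stage and 53.7, 40.9 and 31.0 CPM at 5 hpf (-4.64 ± 0.21, 2-fold test adjusted p = 4.18e-11). The Tudor domain genes tdrd6 and tdrd1, whose products bind germ granule proteins, went from 199.9 ± 30.1 to 16.8 ± 1.41 CPM and from 154 ± 10.8 to 15.8 ± 2.77 CPM. The RNA-binding protein gene dazl fell by 2.80, and piwil2, of the piRNA pathway, fell by 2.57, and rgs14a, a regulator of G protein signalling, fell by 2.702.

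The list also held genes that mark primordial germ cells. The level of nanos3, a translational repressor, went from 40.1 ± 1.35 to 17.4 ± 4.86 CPM and that of dnd1, which protects germ cell mRNAs from microRNA repression, from 56.7 ± 2.66 to 20.4 ± 5.05 CPM. The log2 fold changes were -1.24 ± 0.20 and -1.497 ± 0.18, and that of tdrd7a was -1.67 ± 0.16. The Piwi gene piwil1 had 35.9, 39.7 and 37.5 CPM at the 128-cell stage and 30.4, 27.1 and 32.1 CPM at 5 hpf and fell by 0.34 ± 0.18 (adjusted p = 0.094), a call that was lost under both DESeq2 settings and without any 1 replicate, among others. Both celf1 and gra failed the test, at 0.14 ± 0.15 and -0.25 ± 0.15. Germ plasm transcripts covered a range from 4.01% of the 128-cell level for buc to 110.2% for celf1.

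The genes of mRNA decay moved in both directions. Of 26 tested, 9 rose (34.6%) and 11 fell (42.3%), shares near the 38.6 and 41.2% of all genes, and 6 and 4 passed the 2-fold test, with a median of 0.016 that became -0.67 with library totals and -0.065 without replicate 3. The subunits of CCR4-NOT, the main cytoplasmic deadenylase, divided: the scaffold gene cnot1 rose from 135 ± 13.6 to 387 ± 69.6 CPM, while the catalytic genes cnot6b and cnot7 fell from 98.8 ± 13.4 to 23.8 ± 2.02 CPM and from 39.8 ± 4.95 to 7.56 ± 0.419 CPM. The readers of m6A-marked mRNA also divided, since ythdf2 rose by 1.15 ± 0.15 and ythdf3 fell by 1.42 ± 0.16. The furthest fall in the list was that of btg4, described above, and the decapping gene dcp2 rose by 1.64, the nonsense-mediated decay helicase gene upf1 by 1.78 and elavl1a, which encodes a stabilizing protein that binds AU-rich elements, by 1.595. The RNA-binding protein gene ybx1 rose most, from 453 ± 105 to 2897 ± 61.3 CPM (2.703 ± 0.21). Of the microRNA machinery, dicer1 fell by 0.86 and ago2 fell by 1.27, neither past the 2-fold test.

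The activators of the zygotic genome included members that rose, members that fell and members that did not pass the test. Of 16 tested, 9 rose (56.25%, against 38.6% of all genes) and 4 fell (25%, against 41.2%). By more than 2-fold, 7 rose and 4 fell, with a median of 0.86. This balance depended on the scaling, since with library totals 7 rose and 7 fell, with a median of 0.17. The pluripotency factor gene pou5f3 rose from 362 ± 52.5 to 1646 ± 329 CPM (2.18 ± 0.19). In contrast nanog had 516, 667 and 639.7 CPM at the 128-cell stage and 435, 537 and 526 CPM at 5 hpf and differed by -0.28 ± 0.16 (adjusted p = 0.124), with overlapping stages. SoxB1 transcripts changed places. The maternal member sox19b had 352, 428 and 407 CPM at the 128-cell stage and 39.0, 39.7 and 39.6 CPM at 5 hpf (-3.32 ± 0.16, 2-fold test adjusted p = 4.41e-10). Its zygotic relative sox19a had 0.743, 0.158 and 0.475 CPM at the 128-cell stage and 595, 687 and 705 CPM at 5 hpf, and sox3 and sox2 rose from 1.85 ± 1.55 to 494 ± 98.9 CPM and from 0.184 ± 0.046 to 42.9 ± 16.1 CPM.

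Within the general transcription machinery, tbpl2, a TBP relative of the oocyte, fell from 41.8 ± 1.59 to 2.32 ± 0.28 CPM. The somatic factor tbp also fell by 1.196 ± 0.15. The Nodal transcription partner foxh1 rose by 1.62 ± 0.17, whereas smad2, which it binds, fell by 2.27 ± 0.16.

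All 30 tested genes of the early, or first-wave, zygotic list rose, all by more than 2-fold, with a median log2 fold change of 8.44. The list holds genes known as the earliest transcribed, so its direction is given by its choice. Their summed level, as CPM of assigned counts without TMM, was 19672 to 19961 at 5 hpf and 59.4 to 125 at the 128-cell stage. The ventral homeobox repressors showed large changes: ved had 0.743, 0.632 and 0.423 CPM at the 128-cell stage and 921, 989.7 and 696 CPM at 5 hpf, vox rose from 2.01 ± 2.50 to 397 ± 84.7 CPM, and vent from 0.0652 ± 0.113 to 172 ± 26.6 CPM. Apolipoprotein gene apoeb had 1.92, 0.87 and 1.43 CPM at the 128-cell stage and 3340.5, 3567 and 3115 CPM at 5 hpf, a change of 11.23 ± 0.34. The Elabela peptide hormone gene apela had 3 counts at the 128-cell stage and was higher at 5 hpf by 2588-fold (95% counting interval 885 to 12555), and its receptor gene aplnrb rose by 5.25 ± 0.95 (4.41 to 6.33 on leaving out 1 replicate, lowest without replicate 2 and highest without replicate 1). The polymerase III subunit gene polr3gla rose by 10.50 ± 0.28 and the small heat shock gene hspb1 by 8.11 ± 0.67, or 8.93 without replicate 2. Fitted changes of genes with few counts at the 128-cell stage are imprecise: of 180 named genes that were called, 35 moved by over 1.5-fold when 1 replicate was left out.

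Early zygotic transcripts were not spread evenly over the samples of the 128-cell stage. Replicate 1 was the highest for 18 of the 30 genes, and for 10 of these it was over 3 times as high as both others. Its sum was 125 CPM, against 63.1 and 59.4 in replicates 2 and 3. The same sample was the highest in the yolk syncytial layer list, with a sum of 11.9 CPM against 4.65 and 4.77, and in muscle markers of later stages, with 17.1 against 6.73 and 6.70 CPM and 18 genes detected against 14 and 13. The part of these differences in the other results was not tested. The Krüppel-like factor gene klf17 had 29.8, 2.85 and 8.45 CPM at this stage and 505, 490.3 and 414 CPM at 5 hpf, and vox had 4.89, 0.395 and 0.74 CPM at the 128-cell stage. Of the Mock samples of this stage, replicate 1 was also the highest, with a sum of 160.0 against 60.2 and 99.9 CPM in replicates 2 and 3. All 3 klf17 levels remained far below those of 5 hpf.

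By the size of the rise, the 10 leading genes with a mean of at least 50 CPM at 5 hpf were ctsll, pitpnc1b, krt18a.1, stm, alcamb, tbx16, CRABP2, si:ch211-217k17.9, sult6b1 and pkdccb. The cathepsin L-like gene ctsll had no count at the 128-cell stage and 410.1, 325 and 314 CPM at 5 hpf, at least 8077-fold higher against a floor of 3 counts over the group. The secreted kinase gene pkdccb also had none and reached 65.3, 63.6 and 54.5 CPM, at least 1412-fold higher. The mesodermal T-box gene tbx16, known as spadetail, had 0.0391, 0.0791 and 0.211 CPM at the 128-cell stage and 1028, 1113 and 1192 CPM at 5 hpf. The phosphatidylinositol transfer protein gene pitpnc1b had 1 count at the 128-cell stage and was higher by 24525-fold (95% counting interval 4401 to 968776). For the adhesion molecule gene alcamb with 3 counts the ratio was 12991-fold (95% counting interval 4445 to 63002), and for the retinoic acid binding protein gene CRABP2 with 1 count it was 16446-fold (95% counting interval 2951 to 649649). At these counts the 128-cell level itself was hardly measured, and the order within the 10 carries that error.

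The enveloping layer, the outer epithelium of the blastula, showed the largest median of the lists of at least 10 tested genes, 9.50. Of 19 tested genes, 16 rose (84.2%, against 38.6% of all genes), 15 by more than 2-fold. None fell, although 3 fell with library totals. Members near 0 at the 128-cell stage could pass the filter on low counts only through 5 hpf, so the direction of this list is in part given by its choice. Its keratins were near 0 before and abundant after: krt4 had 4803, 5143 and 4038 CPM at 5 hpf, krt8 4508, 4707 and 4224 and krt18a.1 3415, 3211 and 3479. At the 128-cell stage the same genes had 9.38, 0.791 and 1.74, 5.08, 4.98 and 4.28 and 0.274, 0.0395 and 0.317 CPM. The tight junction gene cldne rose from 0.0831 ± 0.0324 to 762 ± 111 CPM, and grhl3, a transcription factor of surface epithelium, from 0.655 ± 0.373 to 491 ± 39.2 CPM. The desmosomal linker periplakin, ppl, rose from 33.0 ± 7.47 to 828 ± 127 CPM.

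The layer also contains genes with a maternal supply. The adhesion gene epcam had 1520.1, 1142 and 1209.6 CPM at the 128-cell stage and 1099, 1028 and 1053 CPM at 5 hpf (-0.27 ± 0.18, adjusted p = 0.181), and cdh1, which encodes E-cadherin, rose by 1.14 ± 0.18. Claudin genes, not all of them in the enveloping layer list, moved in opposite directions. Outside that list, cldnd fell by 3.81 and cldng, named after its values were seen, fell by 4.15. In contrast cldne and cldnb rose by 13.01 and 9.34, and cldnf went from 0 counts to 30.3, 39.2 and 53.5 CPM.

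In the yolk syncytial layer and lipid transport list, all 13 tested genes rose, 12 by more than 2-fold, with a median of 8.25. Together these genes held 252, 92 and 69 counts in 128-cell replicates 1, 2 and 3. Members this low could pass the filter on low counts only through 5 hpf, so the direction of the list is largely given by its choice. The homeobox gene mxtx2, which initiates the layer, had 4.18, 0.632 and 0.687 CPM at the 128-cell stage and 38.4, 9.57 and 11.9 CPM at 5 hpf, and replicate 1 was the highest at both stages. Its relative mxtx1 and the nuclear receptor gene hnf4a had 3 counts each at the 128-cell stage and were higher by 2979-fold (95% counting interval 1019 to 14451) and 3727-fold (95% counting interval 1275 to 18078). The lipid transfer gene mttp, which loads apolipoprotein B, rose from 0.0616 ± 0.055 to 317 ± 18.6 CPM, and apoc1 from 0.192 ± 0.209 to 522 ± 57.2 CPM. Other apolipoprotein genes of the list also rose, to 29.0, 43.2 and 15.9 CPM of apoa1a and 7.17, 13.1 and 5.70 CPM of apobb.1 at 5 hpf.

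Genes of germ layer signalling mostly rose, from levels near 0 for some and from a maternal supply for others. As in the lists above, members near 0 at the 128-cell stage could be tested only through their level at 5 hpf. Of 19 tested genes of the Nodal pathway, 17 rose (89.5%, against 38.6% of all genes) and 1 fell (5.26%, against 41.2%). All 17 rose by more than 2-fold, the 1 fell by less, and the median was 6.72. Among the ligands, ndr2 rose from 0.149 ± 0.0912 to 55.2 ± 12.4 CPM and ndr1, which is also maternal, from 3.72 ± 0.982 to 28.3 ± 6.55 CPM. The maternal ligand partner gdf3, also called vg1, had 421, 281 and 410.3 CPM at the 128-cell stage and 333, 240.5 and 254 CPM at 5 hpf and fell by 0.42 ± 0.16 (adjusted p = 0.0262), with stages that overlapped. That call was lost with DESeq2's Wald test (adjusted p = 0.226), with its size factors (0.165) and without replicate 3 (0.221). The antagonists lft1 and lft2 rose from 1.08 ± 0.574 to 54.2 ± 9.52 CPM and from 0.279 ± 0.25 to 46.5 ± 13.8 CPM.

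Targets of Nodal signalling were low at the 128-cell stage, some of them near 0. The brachyury gene tbxta had 0.156, 0.0791 and 0.211 CPM at the 128-cell stage and 496, 681 and 656 CPM at 5 hpf (11.97 ± 0.30). The endoderm genes sox32 and gata5 rose from 0.28 ± 0.196 to 126 ± 21.6 CPM and from 0.109 ± 0.0531 to 113 ± 8.62 CPM, and sox17, which acts after sox32, reached 7.85, 10.5 and 6.58 CPM. The organizer gene gsc rose from 1.96 ± 0.101 to 97.9 ± 24.2 CPM and the mesendoderm gene mixl1 from 4.67 ± 0.934 to 206 ± 57.0 CPM. The paraxial mesoderm gene tbx6, which acts later, had 0.899, 0.87 and 0.475 CPM at the 128-cell stage and 1.36, 1.15 and 1.19 CPM at 5 hpf (0.74 ± 0.43, adjusted p = 0.133).

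Of 16 tested genes of the BMP and organizer list, 15 rose (93.75%, against 38.6% of all genes) and 1 fell (6.25%, against 41.2%). By more than 2-fold, 14 rose and 1 fell, with a median of 7.83. The ligands bmp4 and bmp7a rose from 0.21 ± 0.0605 to 58.9 ± 16.4 CPM and from 1.06 ± 0.101 to 237 ± 56.4 CPM. The exception was the maternal ligand gdf6a, known as radar, which fell from 15.1 ± 1.59 to 1.53 ± 0.851 CPM. The dorsal antagonist chrd had 0.0782, 0.0791 and 0.211 CPM at the 128-cell stage and 255, 225 and 218 CPM at 5 hpf. The feedback regulators szl and admp had 1 and 2 counts at the 128-cell stage and reached 33.8, 60.9 and 37.9 CPM and 44.8, 75.4 and 41.2 CPM. The BMP target id1 rose by 4.95 ± 0.20 and id3 by 1.40 ± 0.22.

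The Wnt list joined maternal and zygotic components. Of 15 tested genes, 10 rose (66.7%, against 38.6% of all genes) and 4 fell (26.7%, against 41.2%). By more than 2-fold, 9 rose and 2 fell, with a median of 2.23. The maternal dorsal determinants fell: sybu, whose product carries the determinant along microtubules, had 47.5, 41.7 and 40.6 CPM at the 128-cell stage and 3.88, 2.87 and 2.54 CPM at 5 hpf, and hwa, which stabilizes beta-catenin, had 8.48, 5.81 and 8.29 CPM at the 128-cell stage and 0.873, 0.479 and 0.951 CPM at 5 hpf. Their changes were -3.82 ± 0.23 and -3.29 ± 0.35. The beta-catenin genes ctnnb1 and ctnnb2 rose by 2.23 ± 0.18 and 0.92 ± 0.17, the latter a call lost with library totals (0.23, adjusted p = 0.2), axin1 of the destruction complex fell by 1.12 ± 0.16, and axin2 differed by 0.12 ± 0.14 (adjusted p = 0.48). Zygotic wnt11f2 rose from 1.22 ± 0.836 to 335 ± 12.3 CPM and the target sp5l from 0.0745 ± 0.0332 to 192 ± 35.6 CPM. The early dorsal target dharma was also higher at 5 hpf, though at a low level of 6.88, 3.06 and 3.09 CPM. Its log2 fold change was 3.71 to 4.65 on leaving out 1 replicate.

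In the FGF pathway 11 of 12 tested genes rose (91.7%, against 38.6% of all genes), all by more than 2-fold. None fell (1 fell with library totals), and the median was 6.24. The ligand gene fgf3 rose from 0.198 ± 0.247 to 35.1 ± 1.64 CPM, and fgf17 and fgf24 had 2 and 3 counts at the 128-cell stage and 68.8, 54.1 and 47.7 CPM and 34.4, 31.0 and 30.9 CPM at 5 hpf. The receptor gene fgfr4 had 0.391, 0.277 and 0.423 CPM at the 128-cell stage and 488, 651 and 514 CPM at 5 hpf. The feedback inhibitors dusp6, spry2 and spry4 rose by 9.32 ± 0.89, 4.87 ± 0.23 and 3.87 ± 0.29. For dusp6 the value ran from 8.67 to 11.95 on leaving out 1 replicate, lowest without replicate 2 and highest without replicate 1. The ETS transcription factor genes etv4 and etv5b, which had a maternal supply, rose by 2.75 ± 0.17 and 2.18 ± 0.17. The inhibitor il17rd had 92.7, 104 and 87.7 CPM at the 128-cell stage and 74.5, 82.3 and 79.8 CPM at 5 hpf and an adjusted p of 0.114.

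**Figure D3:**
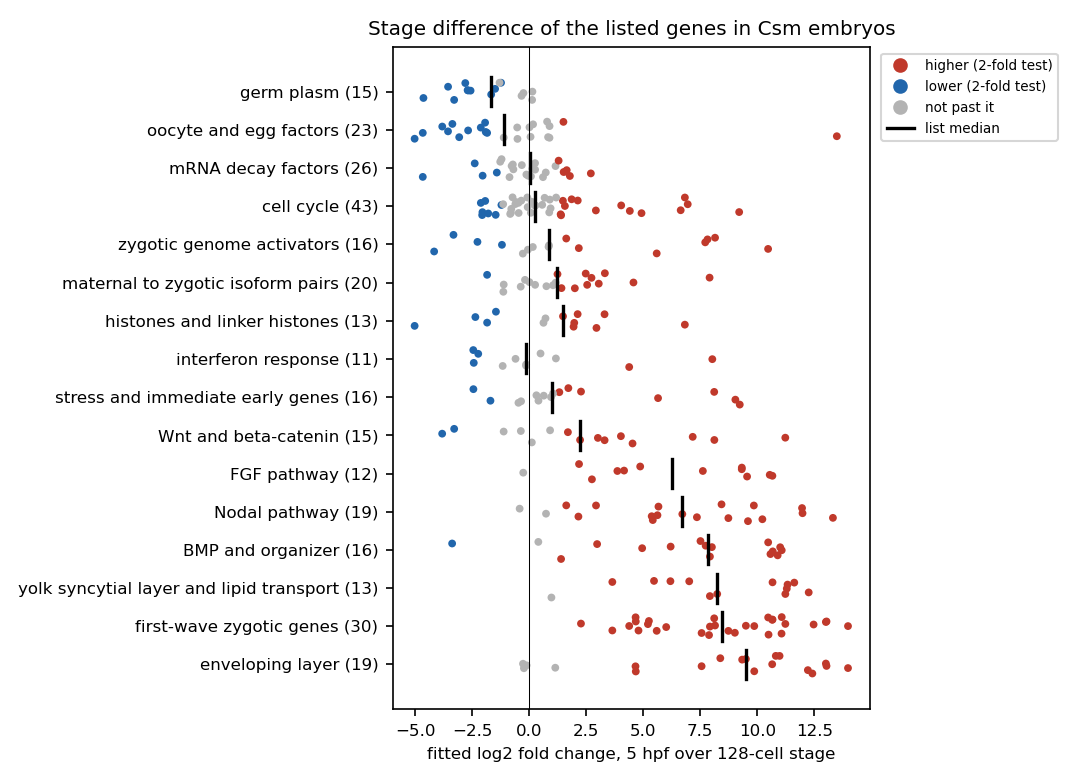
Fitted log2 fold change of each tested gene (5 hpf over 128-cell stage, points) for 16 lists, with the number of tested genes in brackets and the list median as a bar. Red and blue points passed the 2-fold test, and the medians run from -1.67 for germ plasm to 9.50 for the enveloping layer. With library totals all values shift by -0.68, and the medians of cell cycle and mRNA decay genes turn negative; that of interferon genes turns positive with DESeq2 size factors.

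The cell cycle list had a median of 0.25, which became -0.43 with library totals. Of 43 genes tested, 20 rose (46.5%, against 38.6% of all genes) and 16 fell (37.2%, against 41.2%). By more than 2-fold, 14 rose and 7 fell. The G1 cyclins ccnd1 and ccne2 rose steeply. For ccnd1 the samples had 23.8, 15.2 and 24.2 CPM at the 128-cell stage and 2011, 2498 and 1763 CPM at 5 hpf, and ccne2 went from 2.84 ± 0.454 to 358 ± 70.0 CPM. The maternal ccne1 had 373, 384 and 355 CPM at the 128-cell stage and 426, 445 and 337 CPM at 5 hpf (adjusted p = 0.538). Mitotic cyclins also changed: ccnb1 fell by 0.35 ± 0.17, ccnb2 fell by 1.14 ± 0.18, and ccna1, the germline cyclin A, fell by 1.22 ± 0.17 as ccna2 rose by 0.94 ± 0.17. The call of ccnb1 (adjusted p = 0.0695) was lost under 5 alternatives, with adjusted p of 0.112 to 0.36: DESeq2's Wald test, its size factors, mitochondrial transcripts left out, and without replicate 1 or 3. That of ccna2 was lost with library totals (0.25, adjusted p = 0.159). The checkpoint kinases chek1 and chek2, which act in DNA damage signalling, both fell, from 69.5 ± 11.4 to 16.7 ± 3.82 CPM and from 64.9 ± 14.4 to 15.9 ± 4.70 CPM. The licensing inhibitor gmnn fell by 1.47 ± 0.19 and the origin recognition subunit orc1 fell by 2.12 ± 0.16. The inhibitor of cyclin-dependent kinases cdkn1ca rose from 2.54 ± 0.207 to 78.3 ± 10.1 CPM.

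For several functions a maternal transcript fell while that of a paralogue rose. These pairs were put together after their values were seen, and levels of paralogues are not compared, since CPM are not scaled by length. The kinase that restrains Cdk1 was supplied by wee2, with 403, 328 and 352 CPM at the 128-cell stage and 111, 93.9 and 80.6 CPM at 5 hpf, and by wee1, with 17.6, 27.3 and 23.5 CPM at the 128-cell stage and 361, 361 and 383 CPM at 5 hpf. The former fell by 1.93 ± 0.16 and the latter rose by 4.03 ± 0.18. The replicative helicase subunit Mcm3 was arranged alike, with 419, 233 and 301 CPM at the 128-cell stage and 33.5, 31.7 and 9.51 CPM at 5 hpf for mcm3l and 0.274, 0.395 and 0.264 CPM at the 128-cell stage and 158, 176 and 254 CPM at 5 hpf for mcm3. Of the identifiers named mcm6, ENSDARG00000033231 had 220.4, 145 and 177 CPM at the 128-cell stage and 228, 158 and 133 CPM at 5 hpf and ENSDARG00000057683 had 0.782, 2.06 and 0.634 CPM at the 128-cell stage and 103, 133 and 158 CPM at 5 hpf, with log2 fold changes of -0.08 ± 0.16 (adjusted p = 0.646) and 6.83 ± 0.30. The former did not pass the test and the latter rose. Of the other Mcm genes, mcm4 and mcm5 differed by 0.27 ± 0.15 and -0.068 ± 0.15 (adjusted p = 0.105 and 0.689), and mcm7 rose by 2.13 ± 0.15.

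Other pairs changed less. The stem-loop binding protein gene slbp, with 315, 265 and 254 CPM at the 128-cell stage and 354, 395 and 555 CPM at 5 hpf, rose by 0.63 ± 0.18, a rise that was absent with library totals (-0.060), as slbp2 fell. Of the poly(A)-binding proteins, pabpc1l fell by 1.12 ± 0.17 and the somatic pabpc1a rose by 1.24 ± 0.18. The elongation factor gene eef1a1l1 rose from 1482 ± 208 to 14784 ± 2046 CPM (3.32 ± 0.27). The list of isoform pairs had a median of 1.199, with 13 of 20 higher (65%, against 38.6% of all genes) and 4 lower (20%, against 41.2%). By more than 2-fold, 10 were higher and 1 was lower. The actin genes actb1 and actb2 rose by 3.05 ± 0.23 and 1.41 ± 0.21, while of the tubulin genes tubb4b fell by 0.37 ± 0.17 and tubb2b rose by 2.73 ± 0.18. The call of tubb4b (adjusted p = 0.0556) was lost with DESeq2's Wald test (0.308), with its size factors (0.261) and without replicate 1 (0.442) or 3 (0.101).

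**Figure D4:**
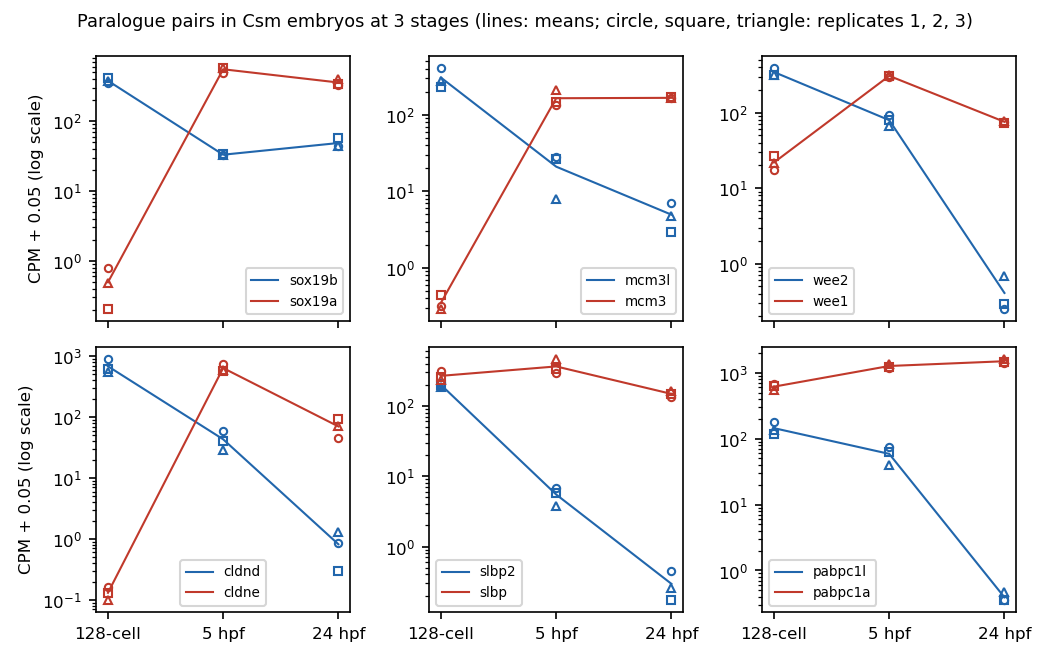
CPM + 0.05 (log scale) of 6 pairs of paralogues in the Csm samples of all 3 stages in order of age, scaled over the 9 Csm samples, with lines through the means of 3 and a symbol for each replicate. In each pair the member drawn in blue declines from the 128-cell stage to 5 hpf while its paralogue, drawn in red, goes up. The rise is steepest for sox19a, mcm3 and cldne and least for slbp and pabpc1a. Of these, slbp was itself abundant at the 128-cell stage, and its rise was absent with library totals (-0.060).

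Of 13 tested histone and chromatin genes, 9 rose (69.2%, against 38.6% of all genes) and 4 fell (30.8%, against 41.2%). By more than 2-fold, 7 rose and 4 fell, with a median of 1.48. Replacement histone H3.3 genes rose, with h3f3a going from 247 ± 25.4 to 1948 ± 536 CPM and h3f3d from 333 ± 73.8 to 1277 ± 235 CPM. The architectural protein gene hmga1a had 732, 933 and 852 CPM at the 128-cell stage and 5811, 7957 and 12162 CPM at 5 hpf and rose by 3.30 ± 0.26. The histone chaperone gene nasp fell from 1620.0 ± 294 to 313 ± 37.1 CPM, and npm2a, a nucleoplasmin of the egg, fell by 1.46 ± 0.21 while npm2b rose by 0.71 ± 0.21, a rise lost with library totals (0.030, adjusted p = 0.892). Canonical histone transcripts end without a poly(A) tail and are not described here.

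All 84 genes with symbols of cytosolic ribosomal proteins rose (38.6% of all genes did), 82 of them by more than 2-fold (24.9% of all genes). The median was 2.13, or 1.45 with library totals, where 82 rose and none fell. The choice by symbol also takes in ribosomal protein-like genes such as rps27l, described below. Summed, the 84 genes stood at 2.03, 1.23 and 1.198% of the effective library size in replicates 1, 2 and 3 at the 128-cell stage and 7.56, 6.93 and 4.12% at 5 hpf. These percentages are on the TMM scale and are not shares of counts. Replicate 3 was the lowest at 5 hpf, though above every sample of the earlier stage, and without it 82 rose with a median of 2.29. The large-subunit stalk gene rplp1 had 137, 68.7 and 63.1 CPM at the 128-cell stage and 841, 865 and 442 CPM at 5 hpf, and rps6 of the small subunit had 158, 99.8 and 91.9 CPM at the 128-cell stage and 945, 882 and 597 CPM at 5 hpf. Copies and paralogues in this family share sequence, so values of single members are uncertain.

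Genes of mitochondrial ribosomal proteins moved in both directions. Of 75 genes, 32 rose (42.7%, near the 38.6% of all genes) and 23 fell (30.7%, against 41.2%), 16 and 8 by more than 2-fold, with a median of 0.17 that became -0.51 with library totals. At the extremes mrpl20 rose from 1.97 ± 0.617 to 15.4 ± 2.29 CPM and mrps22 fell from 83.4 ± 5.67 to 21.6 ± 4.94 CPM. Of 51 proteasome subunit genes, 35 rose (68.6%, against 38.6% of all genes) and 6 fell (11.8%, against 41.2%). By more than 2-fold, 16 rose and 4 fell, with a median of 0.78. This balance depended on the scaling: with library totals 22 rose and 15 fell, 4 and 5 by more than 2-fold, with a median of 0.092. The catalytic subunit gene psmb6 rose from 3.45 ± 1.08 to 56.5 ± 10.7 CPM and psmf1, an inhibitor of the proteasome, fell from 34.4 ± 5.19 to 10.6 ± 1.86 CPM.

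All 13 protein-coding genes of the mitochondrial genome rose (38.6% of all genes did), 7 by more than 2-fold (24.9% of all genes). The median was 1.24, or 0.56 with library totals, where 10 rose and none passed the 2-fold test. The rise was not even over the replicates: mt-co1, which encodes cytochrome oxidase subunit I, had 20204, 14405 and 13931 CPM at the 128-cell stage and 68789.9, 66319 and 26596 CPM at 5 hpf. The median of the pair differences was 1.47, 1.59 and 0.67 in replicates 1, 2 and 3, and without replicate 3 all 13 passed the 2-fold test with a median of 1.56. The Mock samples at 5 hpf also varied, with 15.8, 7.03 and 9.64% of counts from the mitochondrial genome.

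Numbered zinc finger genes of the znf1000 to znf1199 series, for which single functions are mostly unknown, moved largely in 1 direction. Of 175 genes of the series, 135 were tested. Members near 0 at the 128-cell stage could pass the filter on low counts only through 5 hpf. Of the 135, 100 rose (74.1%, against 38.6% of all genes) and 16 fell (11.9%, against 41.2%). By more than 2-fold, 87 rose and 5 fell, with a median of 1.95 (1.26 with library totals). Among these, znf1063 had 0.391, 0.553 and 0.581 CPM at the 128-cell stage and 126, 68.8 and 106 CPM at 5 hpf, and znf1060 went from 0.0262 ± 0.0227 to 49.0 ± 13.7 CPM. The largest fall was that of znf1014, from 86.1 ± 12.2 to 25.3 ± 3.58 CPM. These genes lie in clusters of close copies, so reads may be divided among them. Genes with clone-type names, which lack a described function, numbered 2859. Of these, 1312 rose (45.9%, against 38.6% of all genes) and 993 fell (34.7%, against 41.2%). By more than 2-fold, 1065 rose and 601 fell, with a median of 0.30 (-0.38 with library totals).

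A few genes of growth arrest and cell death, which respond to DNA damage in other settings, are given as examples, without a count of the group. The ribosomal protein-like gene rps27l had 15.5, 10.6 and 10.2 CPM at the 128-cell stage and 230.4, 282 and 169.7 CPM at 5 hpf (4.23 ± 0.19), and sesn3 and phlda3 rose from 0.93 ± 0.413 to 521 ± 114 CPM and from 2.45 ± 1.89 to 49.8 ± 23.7 CPM. The cell cycle inhibitor cdkn1a also rose, to 4.85, 5.74 and 7.05 CPM at 5 hpf, and bbc3, which encodes the death effector Puma, reached 9.60, 23.3 and 18.5 CPM. The sestrin gene sesn1 fell by 1.504 ± 0.19.

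Interferon response genes were at low levels, and 6 of the 17 matched were too low to test. Of the 11 tested, 3 rose (27.3%, against 38.6% of all genes) and 4 fell (36.4%, against 41.2%). By more than 2-fold, 2 rose and 3 fell, and the median was -0.14, or 0.028 with DESeq2 size factors. The ubiquitin-like modifier gene isg15 had 3.401, 0.435 and 0.74 CPM at the 128-cell stage and 24.2, 27.1 and 26.1 CPM at 5 hpf and belongs to the early zygotic list as well. The antiviral GTPase gene mxa, with 3 counts at the 128-cell stage, was at 11.7, 16.7 and 10.1 CPM at 5 hpf. The transcription factor irf7 fell to 0.969, 0.957 and 0.951 CPM.

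Of 16 tested stress and immediate early genes, 10 rose (62.5%, against 38.6% of all genes) and 2 fell (12.5%, against 41.2%). By more than 2-fold, 7 rose and 2 fell, with a median of 1.00. The constitutive chaperone hspa8, identifier ENSDARG00000068992, and hsp90ab1 rose by 1.72 and 1.32, whereas the endoplasmic reticulum chaperone hspa5 fell from 1159.5 ± 191 to 363 ± 101 CPM. The heat-inducible hsp70.3 was at 3.97, 8.90 and 1.43 CPM at 5 hpf (adjusted p = 0.38). The immediate early genes ier2a and ier2b rose from 0.0653 ± 0.0813 to 40.6 ± 12.6 CPM and from 0.0526 ± 0.0604 to 36.9 ± 13.9 CPM.

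Transcripts that mark muscle and nerve cells of later stages were low at both stages. The 18 muscle genes summed to 6.70 to 17.1 CPM of assigned counts at the 128-cell stage and to 8.93 to 35.7 at 5 hpf, against 15376 to 16071 at 24 hpf. The highest value at 5 hpf was that of replicate 2, and its part in other results was not tested. In it the calcium pump gene atp2a1 had 7.18 CPM and the other replicates 0.194 and 0.317. Neural markers summed to 3.52 to 5.69 at the 128-cell stage and 19.7 to 24.9 at 5 hpf, against 1215 to 1363 at 24 hpf. Blood markers summed to 5.80 to 7.59 and 109.8 to 186, and at 5 hpf most of this was blf, with 1539 of 1671, 1439 of 1502 and 2773 of 2878 counts of the list in replicates 1, 2 and 3. Notochord markers summed to 2.90 to 4.65 and 498 to 636, mostly tbxta, which is made in the blastula margin, with 5115 of 6569, 7115 of 8530 and 8281 of 9832 counts at 5 hpf. Among markers of 5 hpf tissues, krt4, cldne and grhl3 of the enveloping layer and hnf4a of the yolk syncytial layer were higher at 5 hpf in every sample. The same held for tbxta, gsc and mixl1 of the mesendoderm. Those near 0 at the 128-cell stage could be tested only through 5 hpf, so their direction is in part given by the choice and is no check of the stage label.

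The levels at 24 hpf, on a scale set over the 9 Csm samples, are given for the same genes. Of the 4134 genes that rose by more than 2-fold, 1055 had a mean at 5 hpf over 4 times that at 24 hpf and 487 a mean at 24 hpf over 4 times that at 5 hpf. Of the 3934 that fell, 533 had a mean at 5 hpf over 4 times that at 24 hpf and 655 the reverse. For 516 of the 3934, the mean CPM at 24 hpf was at least that at the 128-cell stage. Both groups were chosen by their levels at 5 hpf, and the same counts over all tested genes are not given. The counts are therefore not read as traits of either group. The CPM of buc was lower again at 24 hpf, with 0.845 ± 0.992 after 35.1 ± 9.57 at 5 hpf and 985 ± 141 in 128-cell embryos. The same held for btg4, with 10.8 ± 3.70 and 0.195 ± 0.286 CPM at the later stages. Since a CPM is relative to the other transcripts of its stage and is not an amount, further loss of these transcripts was not tested. Low at 24 hpf were zar1, with 1.28 ± 0.255 CPM, eif4e1b, with 0.129 ± 0.046, and nanog, with 0.934 ± 0.345. They are examples of transcripts with like levels at the earlier stages, and the others of this kind are not described at 24 hpf. The mesodermal tbx16 declined from 931 ± 67.1 to 10.5 ± 4.01 CPM, and krt4 went on from 3906 ± 497 to 19137 ± 2566. These values are descriptions, with no test.

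The comparison between injections asked whether the stage difference depended on the complex. Of 17590 genes fitted over the 12 Csm and Mock samples of both stages, edgeR's test of the interaction called 0 (0%) at an adjusted p under 0.1, 673 had an unadjusted p under 0.05, and DESeq2's Wald test called 2. Across genes the log2 fold changes of Csm and Mock embryos had a Pearson's r of 0.98, as a description over genes that are not independent, and the median absolute difference was 0.25. Of the 8068 genes past the 2-fold test in Csm embryos, 8063 had the same sign in Mock embryos. For EGFP the change in Csm embryos less that in Mock embryos was -0.15 ± 0.23 (adjusted p = 0.955). This term leaves out any difference between the injections that was present by the 128-cell stage, so it does not measure the knockdown. The study reported fewer EGFP reads in injected than in mock embryos within its batches at both stages. It also reported that fragments of some cut EGFP transcripts persisted, and their reads would count as EGFP here. On the scale of the 12 samples, EGFP in Mock embryos was 191, 333 and 190.2 CPM at the 128-cell stage and 126, 165 and 127 at 5 hpf. A p above the threshold does not show that the effects were equal.

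The medians of 3 lists illustrate the comparison. Germ plasm genes had a median of -1.65 in Mock and -1.62 in Csm embryos in this fit, early zygotic genes 8.22 and 8.49, and enveloping layer genes 7.85 and 9.56. The smallest unadjusted p of all genes was that of rps27l, which had 229.8, 277 and 163.5 CPM in Csm and 85.7, 92.8 and 84.1 CPM in Mock embryos at 5 hpf. At the 128-cell stage it had 16.3, 10.9 and 10.2 and 19.6, 11.7 and 13.5 CPM. Its rise was larger in Csm embryos by 1.63 ± 0.28 on the log2 scale (adjusted p = 0.92 in edgeR), which fails the correction. The keratin krt18a.1 had 1.35, 0.349 and 0.778 CPM in Mock embryos at the 128-cell stage and 0.287, 0.0409 and 0.315 in Csm embryos, and krt4 had 46.8, 3.15 and 31.4 and 9.86, 0.819 and 1.73. At 5 hpf the 2 injections overlapped in both keratins (interaction test, adjusted p = 0.92 and 0.92 for krt18a.1 and krt4). At the 128-cell stage every Mock sample was above every Csm sample for krt18a.1, whereas for krt4 the injections overlapped. Levels at this stage were low, and their part in the interaction values was not tested. The same held for anxa1c, an annexin gene of the enveloping layer list, with 0.94, 0.0499 and 0.438 CPM in Mock and 0.0411, 0 and 0 in Csm embryos at the 128-cell stage and 87.1, 58.1 and 45.0 and 99.2, 143 and 50.5 at 5 hpf (adjusted p = 0.92).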

How the data were processed

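Poly(A) RNA of 25-embryo pools was sequenced, and per the labels and the submitters' processing notes the authors demultiplexed reads with bcl2fastq 2.16.10, handled molecular identifiers with UMI-tools 1.0.0, trimmed with cutadapt 2.4, aligned with STAR 2.7.2b to GRCz11 joined with an EGFP contig and counted with HTSeq 0.11.2. The deposited values used are raw counts per gene and library. A second deposited set, counts that the authors divided by size factors separately for each stage, was not used. Reads that HTSeq assigned to no feature, to several features or to several places stayed out of totals and tests and were 11.1 to 16.3%, 0.669 to 1.08% and 3.77 to 9.99% of the counts in all rows, respectively, in the 6 libraries.

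Genes were filtered with filterByExpr by group (EGFP kept) and tested with edgeR 4.0.16 in R 4.3.3, by TMM scaling, robust quasi-likelihood fits, a plain test and a test against a 2-fold change, with Benjamini-Hochberg adjustment and a threshold of 0.1. The replicate number was a block: it marks 3 independent injections in the study's methods, and deviations from the stage means correlated at 0.37, 0.14 and 0.23 between libraries of the same number and at -0.34 to 0.16 between others. The stage effects of Csm and Mock embryos were compared by the interaction term in a fit of 12 libraries. DESeq2 1.42.0 was an alternative. Scripts were tested on simulated data. A value after ± is an SD (n = 3) beside a mean CPM and an SE beside a log2 fold change; counting intervals (95%, exact binomial) cover counting error only. Counts of replicates differed by more than sampling noise in every pair (chi-square per degree of freedom 13.4 to 80.6). With the block, the p-values rest on how the stage difference varied over the 3 replicate pairs, with variances moderated across genes.

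Named genes are EGFP, ddx4 and tdgf1, members of the lists whose role is described, and in each direction the 10 genes with the largest change past the 2-fold test, in 1 direction in all 3 pairs, with a mean of at least 50 CPM. Members and lists were chosen with earlier results of these data known; list members named as examples of a family were chosen after their values were seen. The lists hold 430 symbols, of which 346 matched an identifier and 295 were tested. Symbols came from a name table that covered 29201 of 32521 identifiers. Results for some list members are not reported here.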

Additional observations from a re-analysis of the deposited data

How the results depend on the processing

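The 2-fold count of lower genes was the count of calls in Csm embryos that moved by over 1.5 times: it was 3934, became 2137 with DESeq2's Wald test and 6438 with library totals, which shift all changes by -0.68. Library totals took the share of higher genes among the calls from 48.4 to 31.9%. Leaving out each replicate gave 12451 to 12974 calls, of which 6186 to 6465 were higher and 6265 to 6509 lower, and 7777 to 7952 calls past 2-fold, of which 4202 to 4259 were higher and 3518 to 3718 lower. EGFP then ranged from -1.06 to -0.69 (log2). Without the replicate block there were 6217 higher and 6562 lower genes, 4050 and 3771 past 2-fold, and EGFP changed by -0.89, so that the pairing moved no count by over 1.5 times and changed the call of 0 named genes. The interaction test called 2 genes with DESeq2's Wald test and 1 without a filter on low counts, and 0 under each other setting, leave-one-out included.

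Of 196 named genes, 26 lost or gained a call or turned under at least 1 alternative, with 27 losses, 24 gains and 24 turns among 2351 values. All turns concerned genes that were not called in the main analysis, except slbp. With library totals, zar1 was at -0.63, eif4e1b was at -0.67, ddx4 was at -0.56, celf1 was at -0.54, axin2 was at -0.57, ccne1 was at -0.58, mcm4 was at -0.41, slbp was at -0.060, hsp70.3 was at -0.28 and atp2a1 was at -0.41. Without the filter, zar1 was at -0.078, eif4e1b was at -0.13, ddx4 was at -0.0099, axin2 was at -0.022 and ccne1 was at -0.027. With DESeq2 size factors, mcm5 was at 0.10 and mcm6 was at 0.086, and with DESeq2's Wald test mcm5 was at 0.10, mcm6 was at 0.086 and atp2a1 was at -0.30. Leaving out each replicate turned 4 of them, with ranges of -0.016 to 0.047 for eif4e1b, -0.19 to 0.14 for mcm6, -0.26 to 0.99 for hsp70.3 and -2.26 to 1.76 for atp2a1, where replicate 2 held most of the counts at 5 hpf and the lowest value, without it, had an adjusted p of 0.00242. The cause of each turn under a setting other than a scaling was not tested. At 1 to 3 counts at the 128-cell stage the depth limits a ratio to its counting interval. The search of transcripts for the miR-430 seed match was not run, since no transcript sequence was used here.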
